A study of Homo sapiens with 4 samples.

Results

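The 30 genes described here encode cyclins, kinases, motors and centromere proteins that act in G2 and mitosis. They were chosen by symbol for their known role, with earlier results of these data known. Every probe set whose annotation names a member was taken: 52 of 22277 probe sets, for 30 of the 11963 genes on the array that have a probe set of their own. RNA was measured in BV-173 and SUP-B15, established human leukemia lines with the Philadelphia translocation, whose product is the kinase BCR-ABL1. Each line was grown without drug or for 16 h with STI571 (imatinib), which inhibits BCR-ABL1, at 10 μmol/l. The comparison asks how transcripts respond when the kinase is blocked. Each of the 4 groups (BV-173 untreated, BV-173 treated, SUP-B15 untreated and SUP-B15 treated) held 1 array, so no value has a replicate and the number of arrays limits all precision. Each line is a single cell line, so a difference between them is one between these cultures.

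Mitosis is driven by cyclin-dependent kinase 1, which is switched on by A- and B-type cyclins and switched off when the anaphase-promoting complex marks those cyclins for destruction. The genes of this program are repressed in resting and G1 cells and transcribed late in the cycle, through promoters that carry a CHR element (cell cycle genes homology region) and CCAAT boxes. Genes needed earlier, for DNA replication, are mostly driven by E2F factors instead. In proliferating blast cells both programs are active, and mitotic transcripts are widely read as markers of proliferation.

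Arrays shared a 2%-trimmed mean of 500.2, but their median signals differed, from 95.5 (BV-173 untreated) to 115 (SUP-B15 untreated). With treatment the median was higher in BV-173 (107.6) and lower in SUP-B15 (106.6). Responses below depend on this scale, as the values with arrays scaled to a common median show. The 18S ribosomal RNA controls averaged 2817 on the treated BV-173 array and 1513 to 1596 on the other arrays; the part of this in the results was not tested, and the SUP-B15 responses below do not use that array. Markers of B precursors were abundant, 8 of 9 measured reaching the array's median signal in all 4 arrays, although MME, which encodes the surface antigen CD10, did so in SUP-B15 alone. Of the measured markers of T cells, myeloid, erythroid, megakaryocyte and stromal or epithelial cells, 0 reached it in all 4, and 0 of the 4 T cell markers in any. Their summed signals per list were 28.4 to 511, against 24358 to 111982 for the B precursor list. In bulk RNA, fewer cells in mitosis and less RNA per cell cannot be told apart.

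No mitosis gene passed the test for an effect of STI571 shared by both lines. In SUP-B15 all 30 had a higher signal after treatment, by a median log2 change of 0.31 (0.01 to 0.94), while in BV-173 16 were higher and 14 lower, with a median of 0.02 (−0.44 to 0.43). Changes are differences of log2(signal + 24.5), a scale that understates changes of dim genes. Over all 7916 genes compared, medians were 0.05 (BV-173) and −0.01 (SUP-B15), and 53.6% and 48.6% of genes were above 0. Limma, with a term for the line and a term for the drug, called 0 members higher and 0 lower after STI571, at a background of 1.4% of genes called higher and 1.62% lower. Adjusted p was 0.228 to 0.999 for the members. Of the 30, 1 (BUB1) had an unadjusted p under 0.05, against 970 of all 7916 genes. The fit has 1 residual degree of freedom, which is the difference between the lines' responses, and its prior was estimated as infinite. Each error thus reflects the typical size of that difference in genes of that brightness. It is neither the gene's own spread nor the noise between repeated arrays. The median standard error of a member's mean change was 0.23. BV-173's median turned to −0.15 when arrays were scaled to a common median. The SUP-B15 count above 0 fell to 28 of 30 after quantile normalization and to 29 of 30 for averaged probe sets. Among gene-specific probe sets, 20 of 21 were above 0 in that line.

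**Figure D1:**
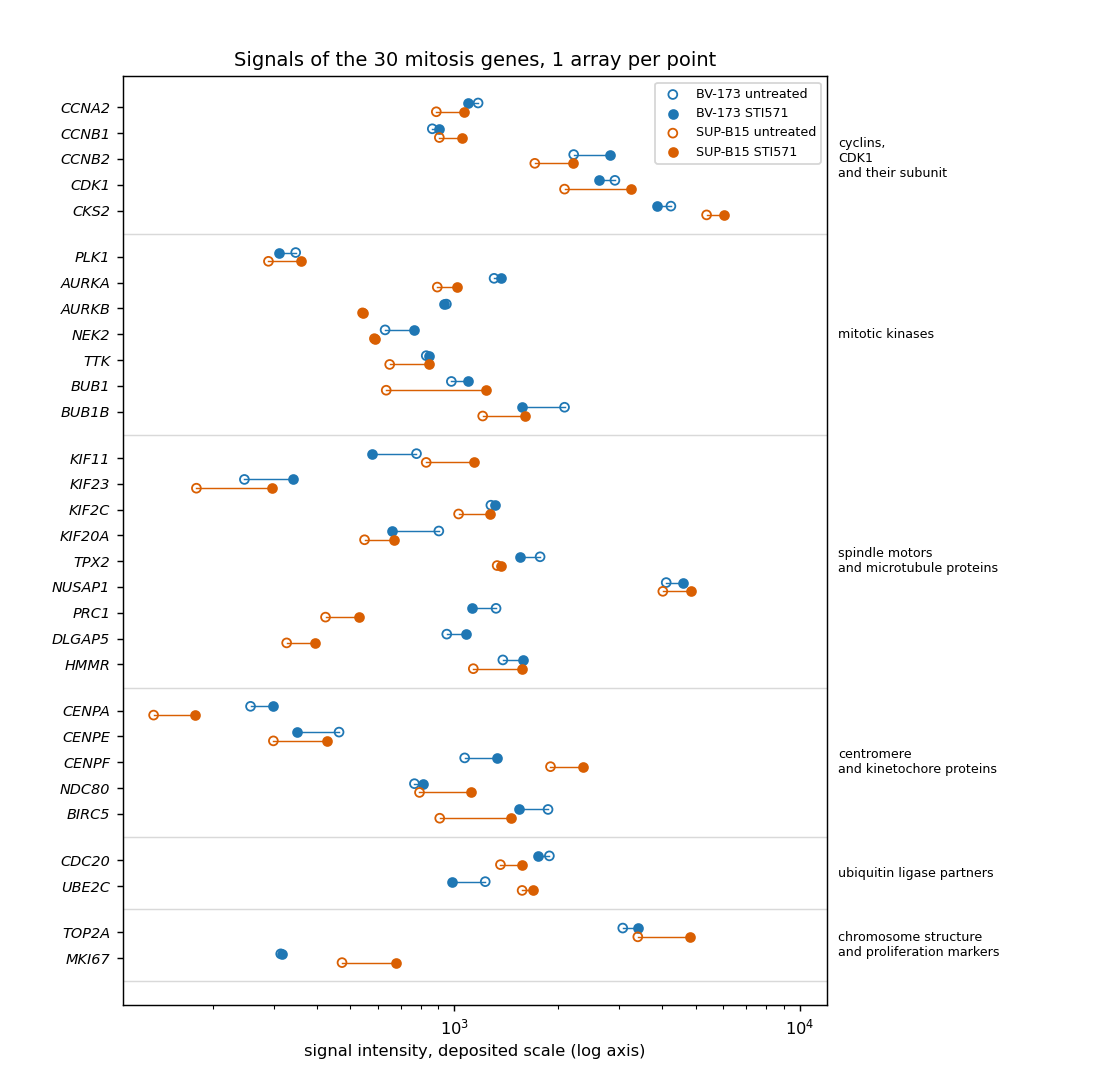
Signal intensity of the 30 mitosis genes on a log axis, 1 array per point, by role; open points are untreated and filled points STI571-treated arrays, BV-173 in blue and SUP-B15 in orange. In SUP-B15 every filled point lies at or to the right of its open point, while in BV-173 16 do and 14 lie to the left.

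Members were brighter than most genes: 26 of 30 passed a filter at the 75th percentile of an array's signals, against 36.8% of all genes. All 30 passed the filter at the 50th percentile that was used. No member reached 2-fold in either line, where 11.5% of all genes did in BV-173 and 9.77% in SUP-B15, dim genes included. At 1.5-fold, 0 members were higher and 0 lower in BV-173, against 16% and 11.2% of genes. In SUP-B15 4 were higher (BUB1, BIRC5, KIF23 and CDK1) and 0 lower, against 11.8% and 14.3%; 4 of 30 is 13.3%, near the background. The SD of the responses across members was 0.24 (BV-173) and 0.21 (SUP-B15), beside 0.67 and 0.62 over all genes, dim ones included.

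Among the cyclins and their kinase, SUP-B15 gave log2 changes of 0.17 to 0.63, while BV-173 gave −0.15 to 0.34. CDK1, the kinase that drives entry into mitosis, had signals of 2915 untreated and 2627.5 treated in BV-173, and of 2084 and 3246 in SUP-B15. The untreated SUP-B15 array was the lowest of the 4 and the treated SUP-B15 array the highest. Cyclin B2 (CCNB2) had 2215 untreated and 2819.7 treated in BV-173, against 1709.6 and 2202 in SUP-B15, a mean log2 change of 0.35 (SE 0.21, adjusted p = 0.540), and had the most similar responses of this role in the lines. Cyclin A2 (CCNA2), which serves both S phase and mitosis, had 1172 and 1096 in BV-173 and 887 and 1068 in SUP-B15. CCNB1, the main mitotic cyclin, showed log2 changes of 0.06 (BV-173) and 0.22 (SUP-B15), and CKS2, a small subunit that binds CDK1, of −0.14 and 0.17.

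The checkpoint kinase BUB1 and the motor KIF23 had the largest mean changes, 0.55 and 0.54, whose order turned with quantile normalization (0.53 and 0.54) and a pseudocount of 1 (0.56 and 0.59). With the mean of probe sets BUB1 had 0.28. The signal of BUB1 was 980.5 untreated and 1095 treated in BV-173, and 635 and 1238 in SUP-B15, so that the untreated SUP-B15 array stood lowest and the other 3 lay within 980.5 to 1238. The mean log2 change of 0.55 had an SE of 0.23 (adjusted p = 0.228). Its partner in the checkpoint, BUB1B, had log2 changes of −0.41 (BV-173) and 0.40 (SUP-B15), which cancel in the mean. NEK2, a kinase that separates centrosomes, was the single member whose signed log2 change was higher in BV-173: 631 and 764.5 there, 587 and 589.7 in SUP-B15. Aurora B (AURKB), the kinase of the chromosomal passenger complex, hardly differed with treatment, at 949 and 932 in BV-173 against 543 and 546 in SUP-B15. Polo-like kinase 1 (PLK1), which promotes mitotic entry and spindle assembly, had log2 changes of −0.15 and 0.29, Aurora A (AURKA), a centrosome and spindle kinase, of 0.06 and 0.19, and the checkpoint kinase TTK of 0.02 and 0.37.

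The spindle motors and microtubule proteins spanned log2 changes of −0.44 to 0.43 (BV-173) and 0.04 to 0.66 (SUP-B15). KIF23, a motor of the central spindle needed for cytokinesis, had 247 and 341 in BV-173 and 179 and 297 in SUP-B15. Both treated arrays lay above both untreated ones, with a mean log2 change of 0.54 (SE 0.34, adjusted p = 0.587). HMMR, a microtubule-binding hyaluronan receptor, had 1382 and 1582 in BV-173 and 1135 and 1569.8 in SUP-B15, again with both treated arrays above both untreated ones.

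KIF11, the motor that pushes spindle poles apart, had responses of opposite sign, with 777 untreated and 578 treated in BV-173 against 829 and 1142 in SUP-B15. KIF20A, a cytokinesis motor, did too, with 902 and 659.5 against 549.9 and 669. TPX2, the activator of Aurora A on the spindle, had 1771 and 1544 in BV-173 and 1330.3 and 1369 in SUP-B15, where BV-173 was above SUP-B15 in all arrays. KIF2C, a motor that depolymerises microtubules, had 1276 and 1312 in BV-173 and 1029 and 1271.5 in SUP-B15, so that the untreated SUP-B15 array was again lowest. NUSAP1, a spindle microtubule protein, had log2 changes of 0.16 and 0.27.

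Centromere and kinetochore genes had the largest median of any role with more than 2 members in SUP-B15, 0.48, beside 0.08 in BV-173. Survivin (BIRC5), a passenger protein that also restrains apoptosis, had 1867 and 1538 in BV-173 and 907 and 1462 in SUP-B15, with both SUP-B15 arrays below both BV-173 arrays. CENPE, a kinetochore motor, had 464 and 352 in BV-173, and 299.6 and 429 in SUP-B15, again of opposite sign. CENPF, a kinetochore protein made in G2, had nearly equal log2 changes of 0.30 and 0.31. NDC80, which couples kinetochores to microtubules, had 0.08 and 0.48, and CENPA, the histone H3 variant of centromeres, 0.20 and 0.35.

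Both partners of the anaphase-promoting complex were lower in BV-173 and higher in SUP-B15 after STI571. UBE2C, its E2 enzyme, had the lowest mean change of all members, with 1229 and 985 in BV-173 and 1571 and 1688 in SUP-B15 (mean log2 change −0.11, SE 0.22, adjusted p = 0.935). Its activator CDC20 had log2 changes of −0.11 and 0.20. TOP2A, the topoisomerase that untangles sister chromatids, had 0.14 and 0.50. The proliferation antigen Ki-67 (MKI67) had 315 and 318 in BV-173 and 473 and 680.3 in SUP-B15, the treated SUP-B15 array standing highest.

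The signed log2 change was higher in SUP-B15 than in BV-173 for 29 of 30 members, with a median difference of 0.33. In size, without the sign, it was the greater in BV-173 for KIF20A, UBE2C, TPX2, AURKB, BUB1B and NEK2. Among all 7916 genes 45.6% had the higher signed change in SUP-B15, and the median difference was −0.06. BIRC5 (0.95), KIF11 (0.86) and CENPE (0.86) were furthest apart, and NEK2 (−0.26) was the exception. For 14 members the response was below 0 in BV-173 and above 0 in SUP-B15, and for 0 members the reverse. With 1 array per group this difference is itself the residual of the fit and was not tested. Each value rests on all 4 arrays. When arrays were scaled to a common median, all 30 were higher in SUP-B15 and the median difference was 0.60; 62.7% of all genes then were higher there. The count was 27 of 30 with quantile normalization, 27 of 30 with the mean of probe sets and 18 of 21 with gene-specific probe sets. Across the 30 members the responses of the lines were nearly unrelated (Pearson's r = 0.09, and 0.13 over all genes), a description over genes that share 4 arrays.

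**Figure D2:**
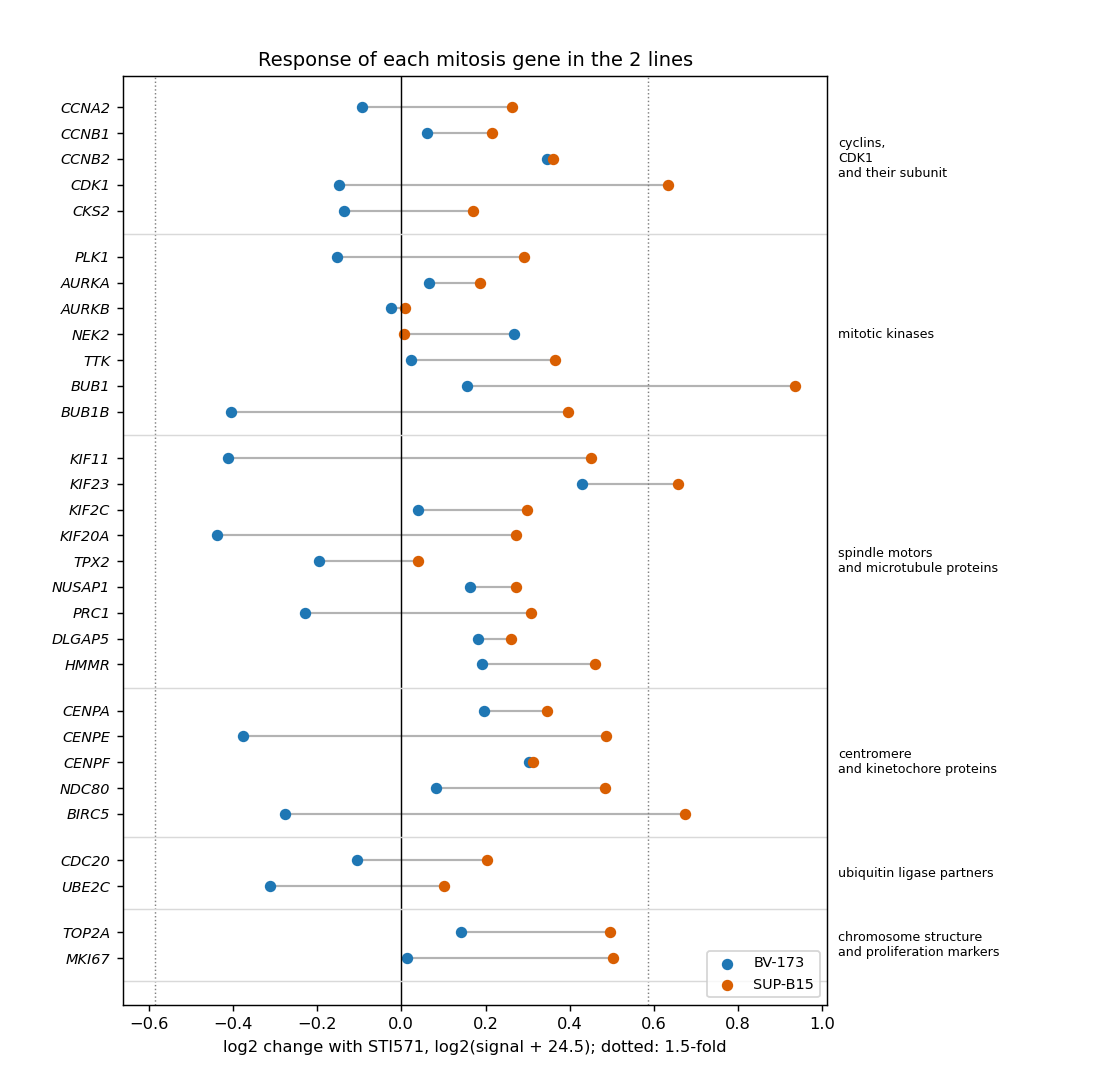
Log2 change with STI571 of each mitosis gene in BV-173 (blue) and SUP-B15 (orange), joined by a grey line, on the log2(signal + 24.5) scale; dotted lines mark 1.5-fold. SUP-B15 lies to the right of BV-173 for 29 of 30 genes, and all SUP-B15 values are above 0.

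Before treatment most mitosis genes were dimmer in SUP-B15 than in BV-173, and after it they were not. The untreated SUP-B15 signal was the lower for 22 of 30 members, with a median log2 difference of −0.38, against 49.9% of all genes and a median of 0.00103. Between the treated arrays SUP-B15 was lower for 14 of 30, with a median of 0.01, against 53.1% of all genes and −0.07. The untreated gap was not particular to the members. Untreated SUP-B15 was lower for 67 of 98 other mitosis genes (median −0.26) and 32 of 37 replication genes (median −0.53), lists described below. Between the treated arrays these counts were 49 and 26. The untreated SUP-B15 array enters both the untreated gap and the SUP-B15 response, so they are not separate observations.

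Averaged over both treatments, 7 members differed between the lines by limma's test, 3 higher and 4 lower in SUP-B15. Of all genes, 14.4% were called higher and 14.4% lower. The test takes the untreated and treated arrays of a line as its replicates, so p does not measure variation between cultures. DLGAP5, a spindle assembly factor, differed most: 951 and 1082 in BV-173 against 327 and 397 in SUP-B15, a log2 difference of −1.43 (SE 0.25, adjusted p = 1.72e-07). PRC1, which bundles microtubules of the central spindle, had 1321 and 1124 against 424 and 530.5, a log2 difference of −1.32 (SE 0.24, adjusted p = 4.61e-07). In both genes the lines did not overlap, and the difference was several times the change with STI571. AURKB, with the signals given above, was lower by a log2 difference of −0.76 (SE 0.24), and BIRC5 by −0.55 (SE 0.22).

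Higher in SUP-B15 were CENPF, with 1071.5 and 1327 in BV-173 and 1898 and 2364 in SUP-B15 (log2 difference 0.82, SE 0.21), MKI67 (0.80, SE 0.28) and UBE2C (0.56, SE 0.22). All SUP-B15 arrays lay above all BV-173 arrays for these 3 genes. Members of 1 role went different ways: the centromere genes CENPF and BIRC5 were called in opposite directions. Calls for BIRC5, UBE2C and MKI67 ended with arrays scaled to a common median (adjusted p = 0.0568, 0.267 and 0.0845), and BIRC5's direction depended on the probe set, as given below. Without the intensity trend in the variances DLGAP5 alone stayed called.

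**Figure D3:**
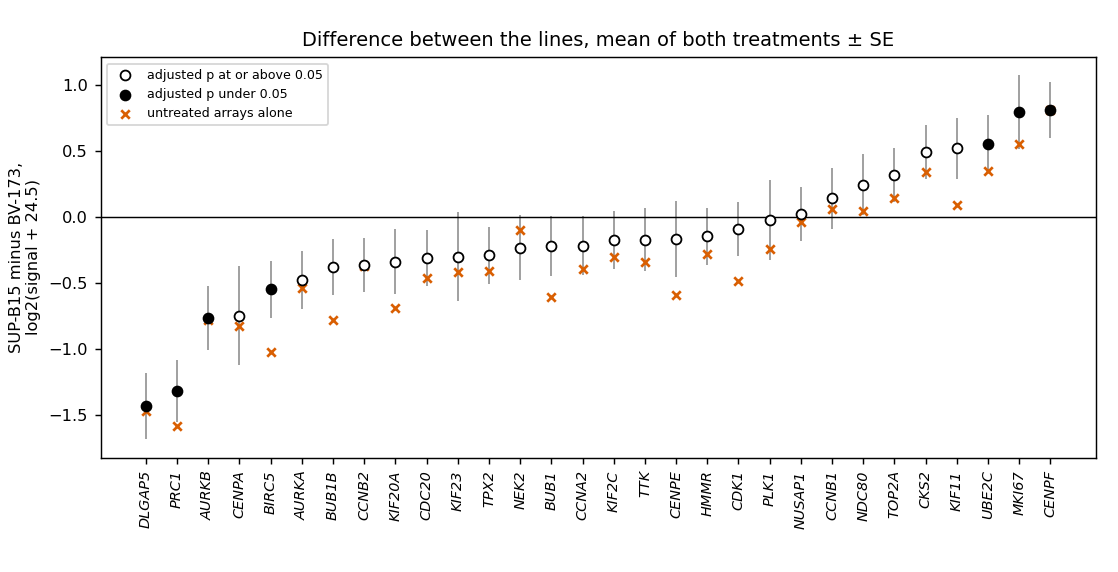
Log2 difference SUP-B15 minus BV-173 of each mitosis gene, averaged over both treatments, with the standard error of the fit as bars; filled points passed limma's test at an adjusted p under 0.05, and orange crosses are the untreated arrays alone. DLGAP5 and PRC1 lie lowest, at −1.43 and −1.32, and CENPF and MKI67 highest, at 0.82 and 0.80.

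Probe sets of 1 gene did not always respond alike. Of the 51 probe sets that name a member alone, 48 passed the filter. The remaining 1 of the 52 names CENPA together with another gene and was not used. It was brighter than the CENPA probe set used, and gave log2 changes of −0.05 (BV-173) and 0.61 (SUP-B15). For 12 members more than 1 probe set was kept, and in 6 of these (BIRC5, BUB1, CCNA2, CDK1, KIF2C and MKI67) probe sets had mean changes of opposite sign. In the 18 kept probe sets other than the brightest, the SUP-B15 response was above 0 in 11 and higher, with its sign, than that of BV-173 in 12, a smaller share than among the brightest.

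BUB1's next brightest probe set gave 0.01 (BV-173) and 0.83 (SUP-B15), close to the brightest, while a dim one gave 1.04 and −1.30 from signals of 18.2 to 153. CDK1's other probe sets gave −0.34 and 0.20, and −0.17 and 0.20. For BIRC5 the change in SUP-B15 was 0.67 for the brightest probe set but −0.17 and −0.19 for the others. The line difference of BIRC5 was −0.55, −0.81 and 0.46 in these 3 probe sets.

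MKI67's 4 probe sets gave SUP-B15 changes of 0.50, −0.08, −0.20 and 0.18, yet all 4 were higher in SUP-B15 than in BV-173, by 0.51 to 0.80. CCNA2's second probe set gave −0.20 and −0.36, and KIF2C's 0.08 and −0.20. Both probe sets of HMMR, NUSAP1 and CENPF and all 3 of AURKA were above 0 in both lines. NEK2's second probe set had 0.04 (BV-173) and 0.84 (SUP-B15), the reverse order of its brightest, and TOP2A's had −0.22 and 0.67.

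**Figure D4:**
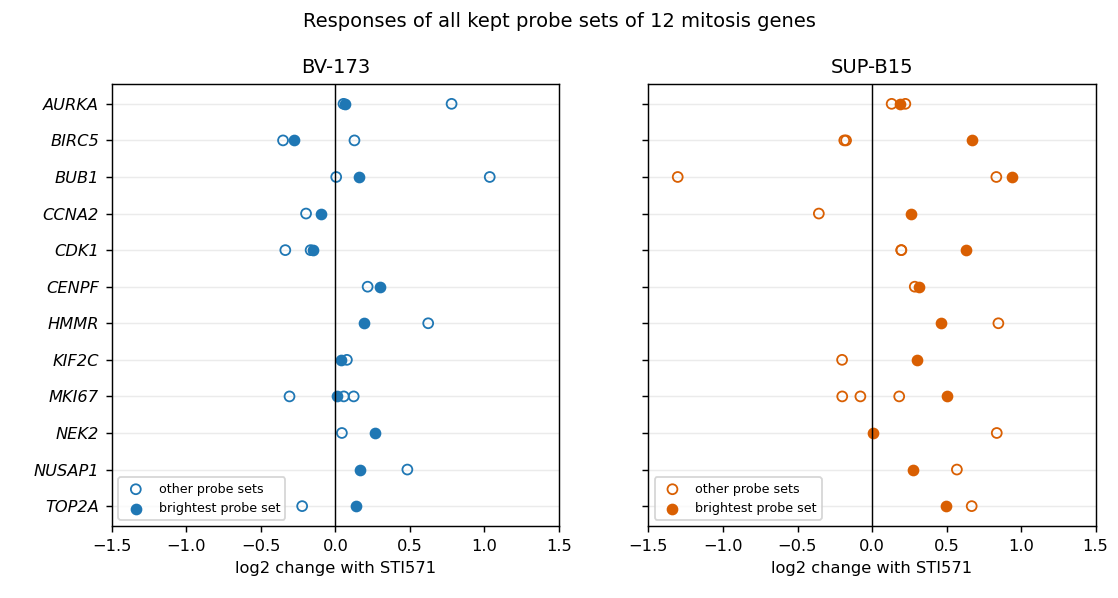
Log2 change with STI571 of every kept probe set of the 12 mitosis genes that have more than 1, in BV-173 (left) and SUP-B15 (right); filled points are the brightest probe set, used for the gene. In SUP-B15 7 of the open points lie below 0 and all filled points above it.

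A longer list of other mitosis genes varied more, with an SD across genes of 0.42 in each line. Of 113 listed, 98 were compared; 0 were called higher and 1 lower after STI571, at a background of 1.4% and 1.62%. An unadjusted p under 0.05 was found for 8 of the 98, against 970 of all 7916 genes. The gene called lower was TRIP13, an ATPase that resets the spindle checkpoint, with log2 changes of −1.11 (BV-173) and −0.54 (SUP-B15; adjusted p = 0.0456); 7 of 11 alternatives ended this call. The signed log2 change was higher in SUP-B15 for 70 of 98, against 45.6% of all genes, and the medians were −0.09 (BV-173) and 0.18 (SUP-B15).

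Regulators of the program were not called. MYBL2, a transcription factor that activates G2/M genes, had 392.5 and 107 in BV-173 but 386 and 443 in SUP-B15 (mean log2 change −0.74, adjusted p = 0.251). WEE1, the kinase that holds CDK1 inactive, had log2 changes of −0.92 and −0.40 (adjusted p = 0.0636). FOXM1, another activator of these genes, had log2 changes of 0.55 (BV-173) and −0.04 (SUP-B15), with a mean of 0.25 (SE 0.32). Unlike MYBL2 and WEE1, it had the higher signed change in BV-173.

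In the other roles, the uncalled genes furthest from 0 in the mean over both lines follow. FZR1, the activator of the anaphase-promoting complex in G1, had log2 changes of 0.22 and 1.39, and CDC27, a subunit of that complex, 0.11 and 0.84. The condensin subunit NCAPH had −1.05 and −0.48, and NCAPH2 0.24 and 0.69. Of kinetochore genes CENPM had −0.03 and −1.69 and CENPI −0.59 and −0.65. The motor KIF20B had −1.12 and −0.13, and TACC3, a spindle protein, 0.11 and 1.03. CEP55 and ARHGAP11A of cytokinesis, and CEP152 and STIL of the centrosome, had mean changes of −0.31 to −0.14.

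Replication and G1/S genes lay below the mitosis genes in both lines. Of 37 compared, 8 were called lower after STI571 and 0 higher, against 1.62% and 1.4% of all genes. Both lines were below 0 for 33 of the 37, for 0 of the 30 mitosis genes and for 2096 of all 7916 genes. Their median log2 changes were −0.65 (BV-173) and −0.38 (SUP-B15), compared with 0.02 and 0.31. The gap between the lists, which was not tested, was thus present in each line. Both lists were chosen with earlier results of these data known. The helicase genes CDC45, GINS2, GINS1, MCM4 and MCM2, the clamp loader RFC2, the flap nuclease FEN1 and the ubiquitin ligase adaptor DTL were those called, with mean log2 changes of −1.68 to −0.67. E2F1 (−1.84 and −0.11) and POLA2 (−0.86 and −0.68) were not called. The signed log2 change was higher in SUP-B15, where the median was nearer to 0, for 31 of 37, against 45.6% of all genes. The count of 8 became 4 with arrays scaled to a common median or with the mean of probe sets, 2 with gene-specific probe sets, and 0 without the cell line term or without the intensity trend.

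**Figure D5:**
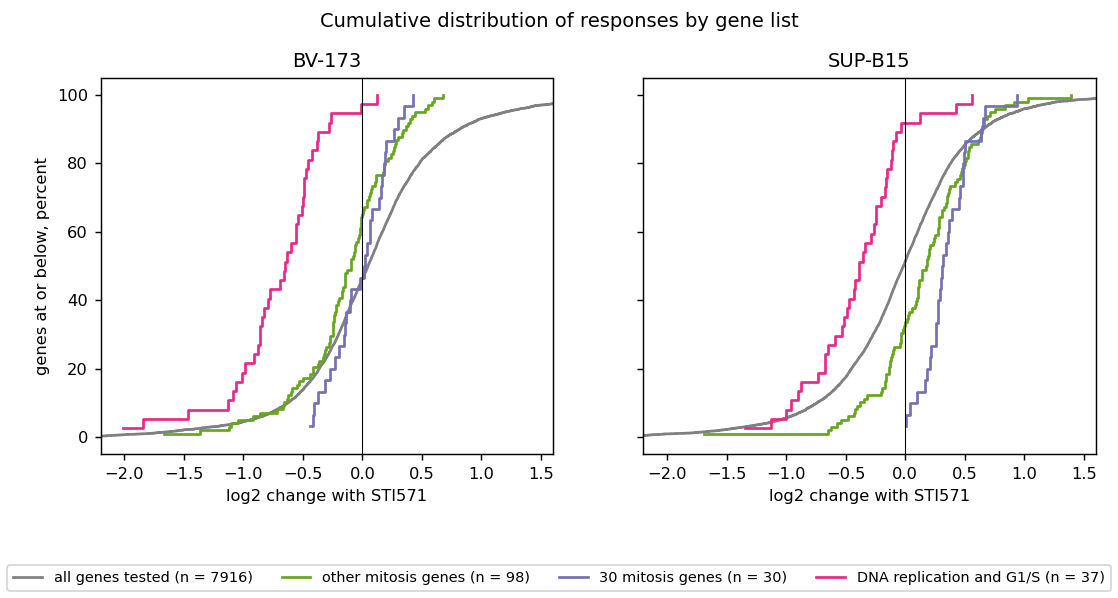
Cumulative share of genes by log2 change with STI571 in BV-173 (left) and SUP-B15 (right), for all 7916 genes, the 30 mitosis genes, 98 other mitosis genes and 37 DNA replication and G1/S genes. The curve of the replication genes lies left of the others in both lines for most of its length, and that of the 30 mitosis genes starts at 0.01 in SUP-B15.

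The promoters of these lists differ in the elements named above, and some are shown because the lists separated in both lines. Sequences are from RefSeq on GRCh38.p14, 250 bases before to 50 after each annotated start; 25 of the 30 members matched, with 27 promoters. TTTGAA or TTTAAA, forms of the CHR core, occurred on either strand in 22 of the 27 (81.5%), against 24% of all 35116 promoters. CCAAT occurred in 23 (85.2%), against 34.6%. The E2F forms TTTCCCGC or TTTGGCGC occurred in 2 (7.41%), against 2.27%. In the 45 promoters of replication genes the counts were 6 (13.3%) for CHR forms, 27 (60%) for CCAAT and 19 (42.2%) for E2F forms. Letters alone do not show that a factor binds.

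The 100 bases before the start are printed 5′ to 3′ on the gene's strand, with CHR, CCAAT and E2F forms of either strand in capitals, some of which overlap. The 6 mitosis promoters are of a cyclin, an activator of the anaphase-promoting complex, a kinase and 3 microtubule genes.
CCNB2 (chr15:59105046-59105145, plus strand): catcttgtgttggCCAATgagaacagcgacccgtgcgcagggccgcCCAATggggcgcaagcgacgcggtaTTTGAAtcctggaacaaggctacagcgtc
CDC20 (chr1:43358881-43358980, plus strand): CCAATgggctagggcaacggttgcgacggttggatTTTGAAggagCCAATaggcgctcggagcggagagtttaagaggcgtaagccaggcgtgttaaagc
PLK1 (chr16:23678789-23678888, plus strand): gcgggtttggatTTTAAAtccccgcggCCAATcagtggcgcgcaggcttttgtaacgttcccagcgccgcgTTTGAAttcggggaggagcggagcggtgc
HMMR (chr5:163460532-163460631, plus strand): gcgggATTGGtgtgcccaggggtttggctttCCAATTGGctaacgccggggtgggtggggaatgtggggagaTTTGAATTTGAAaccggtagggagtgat
KIF11 (chr10:92593030-92593129, plus strand): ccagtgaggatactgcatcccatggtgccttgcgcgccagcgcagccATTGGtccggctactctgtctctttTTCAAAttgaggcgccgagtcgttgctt
PRC1 (chr15:90994536-90994635, minus strand): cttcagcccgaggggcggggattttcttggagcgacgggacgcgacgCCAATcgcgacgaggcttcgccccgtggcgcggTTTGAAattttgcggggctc
In CCNB2, PLK1, HMMR and KIF11 a CHR form begins 28 or 29 bases before the start, and in PRC1 20 bases before it. In CDC20 it begins 65 bases before the start. PLK1 holds a further form at 88 bases and HMMR at 22. GINS2 and DTL are 2 replication genes that fell and hold an E2F form in this window. MCM4, which fell more than DTL, was left out before these were picked.
GINS2 (chr16:85688955-85689054, minus strand): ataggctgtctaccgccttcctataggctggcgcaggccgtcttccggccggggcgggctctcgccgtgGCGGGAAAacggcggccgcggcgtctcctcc
DTL (chr1:212035648-212035747, plus strand): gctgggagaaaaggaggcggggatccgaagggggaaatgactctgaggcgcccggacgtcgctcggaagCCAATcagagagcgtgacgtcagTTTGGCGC
Neither window holds a CHR form, and of the 6 mitosis windows 0 hold an E2F form. This contrast was set in part by the choice of windows, as replication genes were printed only with an E2F form. Members without a CHR form (CCNA2, AURKB, NEK2 and BUB1) or with an E2F form (NUSAP1 and CENPA) were not printed.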

How the data were processed

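RNA of 4 samples was extracted with a Qiagen kit and labelled by Affymetrix protocols, per the labels; GCOS 1.3 is named in the submitters' processing notes. Each deposited value is a probe set's signal intensity, and the 2%-trimmed mean of every array is 500.2; how probes were summarised and scaled is not stated in the sources used here. Of 22277 probe sets, the platform annotation names 1 gene for 19064, several for 1043 and none for 2108 beside 62 controls; only the first were used. Signals became log2(signal + 24.5), the 25th percentile of all signals. Probe sets at or above the 50th percentile of 1 or more arrays were kept, and the brightest stood for its gene (7916 genes). limma 3.58.1 in R 4.3.3 was fitted with cell line and treatment as terms, a variance trend on intensity, and Benjamini-Hochberg adjustment with a threshold of 0.05, two-sided; the lines pair treated with untreated arrays, per the labels. Tested on simulated data, the fit recovered fold sizes, but missed many smaller changes and in most runs called a larger share of unchanged genes than the threshold allows. The simulation gave both lines the same change, with noise of the size of the fit's own errors, so that recovery was built in. It does not show how the fit performs where the lines respond differently. Responses of single lines have no test. All 30 members are named, with 4 signals for those called, largest or smallest in mean change, past 1.5-fold, furthest apart, or with opposed probe sets; of the other lists, called genes and the 2 largest changes per role, with FOXM1 and the printed promoters picked after values were seen. Members and lists were chosen with earlier results of these data known. Alternatives were quantile normalization, a common median, pseudocounts of 1 and 98, no filter, the 75th percentile, the mean of probe sets, gene-specific probe sets, no cell line term, no intensity trend, and each probe set tested.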

Additional observations from a re-analysis of the deposited data

Results flagged for a closer look

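In 14 members the responses to STI571 had opposite signs in the lines, below 0 in BV-173 and above 0 in SUP-B15. With 1 array per group the difference was not tested; of all 7916 genes, 3536 had responses of opposite sign, 1572 of them in this direction. With arrays scaled to a common median, 7 of the 30 members were above 0 in BV-173 and all 30 in SUP-B15. Quantile normalization put 15 (BV-173) and 28 (SUP-B15) above 0, and averaged probe sets 14 and 29. The log2 response of SUP-B15 minus that of BV-173 was 0.95 for BIRC5, 0.86 for KIF11, 0.86 for CENPE, 0.80 for BUB1B, 0.78 for CDK1, 0.71 for KIF20A, 0.54 for PRC1, 0.44 for PLK1, 0.41 for UBE2C, 0.36 for CCNA2, 0.31 for CDC20, 0.31 for CKS2, 0.24 for TPX2 and 0.033 for AURKB.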

How the results depend on the processing

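The count of 0 members called for STI571 held under all 11 alternatives run. The 7 members called between the lines became 4 with a common median and 1 without the intensity trend. They became 3 with no replicate block (the paired term: cell line for treatment, treatment for the lines). With gene-specific probe sets 3 were called, of only 21 compared. Of the other mitosis genes, 2 (TRIP13 and WEE1) were called with the 75th percentile filter, and 0 with a pseudocount of 1, a common median, quantile normalization, no filter, the mean of probe sets, no block or no trend, where limma gave 0 to 10 at an unadjusted p under 0.05. The 8 replication genes became 4 with a common median or the mean of probe sets, and 2 of only 25 compared with gene-specific probe sets. They became 0 without the block (4 at an unadjusted p under 0.05) or the trend (9). The fit without the block counts the lines' difference as spread. The median BV-173 response of the members was −0.017 after quantile normalization, −0.15 at a common median and −0.027 for averaged probe sets; a common median moved the median of all genes to −0.11 (from 0.05) in BV-173 and to 0.08 (from −0.01) in SUP-B15. Members past the threshold in SUP-B15 were 1 at 2-fold with a common median and 4 at 1.5-fold; the median difference of responses became 0.60 with a common median. Mean changes that turned, all within their error, were those of CCNA2 (−0.10) and BIRC5 (−0.031) with the mean of probe sets, BIRC5 (−0.029) with gene-specific probe sets, CKS2 (−0.014) and KIF11 (−0.011) with a common median, and BUB1B (0.0041) with quantile normalization. Line differences that turned were CDK1 (0.031) with the mean of probe sets, NUSAP1 (−0.10) with a common median and BIRC5 (0.46) with gene-specific probe sets. CKS2 was called higher in SUP-B15 with quantile normalization (adjusted p = 0.0282) and the 75th percentile filter (0.0345). The cause was not tested. Detection calls were not used here, so signal over background is unknown.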
